A study of Homo sapiens with 9 samples.

Results

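SR proteins are splicing factors that carry RNA recognition motifs and a tail rich in arginine-serine repeats, the RS domain. The set described here is the 10 genes SRSF1, SRSF2, SRSF3, SRSF4, SRSF5, SRSF6, SRSF7, SRSF9, SRSF10 and SRSF11, taken by their symbols from a table of 61853 genes. Each of the 10 matched 1 Ensembl identifier, and all 10 passed the expression filter that left 19591 genes for testing. Their RNA was measured in 293T cells, a widely used cell line of human embryonic kidney origin with the large T antigen of SV40. The Scramble group (wild-type by its label) received a non-targeting shRNA, and the DIS3-sh1 group received an shRNA against DIS3, a ribonuclease of the nuclear RNA exosome. Each group had 3 libraries of ribosomal RNA-depleted total RNA, which the series text calls biological replicates, and a further group treated with DIS3-sh2 is not analysed here. The labels give neither the time after shRNA delivery nor whether the cells were pooled or clonal.

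By way of background, SR proteins bind exonic enhancer sequences in pre-mRNA and help the U1 and U2 particles to find nearby splice sites. Kinases of the SRPK family in the cytoplasm and of the CLK family in the nucleus phosphorylate the RS domain, and the import receptor TNPO3 carries the phosphorylated proteins into the nucleus. SR genes are also known for poison exons, conserved cassette exons whose inclusion brings a premature stop codon and sends the transcript to nonsense-mediated decay. In GENCODE 29, 22 of the 107 transcripts of the 10 genes are annotated as targets of that decay and 28 as retained-intron transcripts, and each of the 10 genes has at least 1 of the former. Each count here covers a whole gene and does not separate these forms.

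The 6 libraries held between 19800892 and 23532148 counts, and a member gene between 2090 and 11421 counts in a library. DIS3 itself fell from 180 ± 5.62 to 27.4 ± 0.73 CPM (mean ± SD, n = 3 per group), where CPM is a count relative to the TMM-scaled size of its library. Genes known from this line were present at unequal levels, with LIN28B at 101 to 173 CPM before scaling. On that scale NEFL reached 90.5 CPM, NEFM 73.6 CPM, SOX2 14.5 CPM and PAX2 only 4.79 CPM. HBB and CD3E, markers of red cells and T cells, had 0 counts in all 6 libraries. PTPRC and ALB, also checked for absence, were not at 0 throughout. PTPRC had 1 count in Scramble replicate 1, and ALB had 3 to 6 counts in Scramble replicate 3 and each DIS3-sh1 library. The share of small structural RNAs was 4.95% to 5.15% in the Scramble libraries but 8.25% to 9.38% after DIS3-sh1, with the highest share in DIS3-sh1 replicate 1. Mitochondrial genes took 2.20% to 2.23% and 2.78% to 3.47%, with the lowest DIS3-sh1 share in replicate 1. In that library 7 of the 10 SR genes were at the lowest level of their group. The matching share over all tested genes was not computed, and a link to these RNA shares was not tested. Without small structural, ribosomal and mitochondrial genes the median log2 fold change of the SR genes was -0.87, against -0.86 with them.

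All 10 SR genes fell in DIS3-sh1. In each of them every DIS3-sh1 library lay under every Scramble library, and each passed edgeR's quasi-likelihood test with Benjamini-Hochberg adjustment over the 19591 genes. Among all tested genes 32.6% were called lower, 34.5% higher and 67.0% in either direction, and 34.2% had all DIS3-sh1 libraries under all Scramble libraries. All 10 SR genes belong to the 2179 tested genes that averaged 100 CPM or more, and of those 61.9% were called lower. The median log2 fold change was -0.86 over the SR genes, 0.019 over all tested genes and -0.21 over the 2179. A fall of at least 2-fold was seen in 4 SR genes (SRSF1, SRSF2, SRSF6 and SRSF7), where 3.94% of all tested genes and 3.44% of the 2179 were called lower by that much. The levels of the 10 genes summed to 3054, 3089 and 3061 CPM in Scramble and to 1682, 1758 and 1759 CPM in DIS3-sh1, so that the sum in DIS3-sh1 was 56.5% of that in Scramble. These are levels relative to the other genes of a library, so a change in total RNA per cell cannot be seen in them. TMM scaling takes most genes as unchanged, while 67.0% were called in either direction here.

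**Figure D1:**
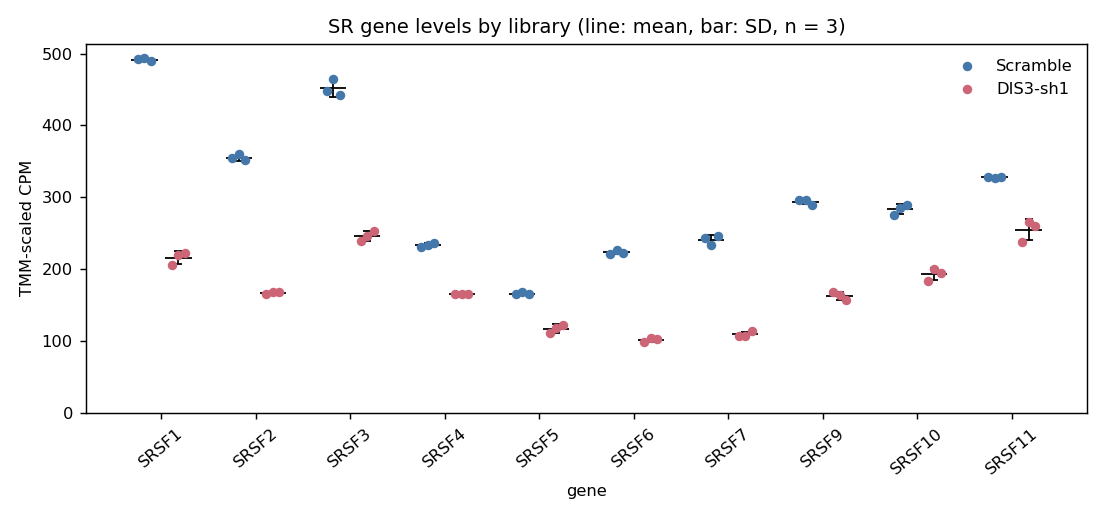
TMM-scaled CPM (y axis, linear from 0) of the 10 SR genes (x axis) in the 3 Scramble and 3 DIS3-sh1 libraries, 1 point per library, with the mean as a line and the SD as a bar. In every gene the 3 DIS3-sh1 points lie under the 3 Scramble points, with the widest gap in SRSF1 (492 against 216 CPM on average).

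Among the members with 2 RNA recognition motifs, SRSF1 fell most, and all 5 (SRSF1, SRSF4, SRSF5, SRSF6 and SRSF9) were called lower, with log2 fold changes from -1.19 to -0.50. SRSF1 (ENSG00000136450.13), the founding SR protein and a regulator of constitutive and alternative splicing, is at 58003360 to 58007346 of chromosome 17, minus strand (GENCODE 29, GRCh38). It measured 492, 494 and 490.0 CPM in Scramble against 206, 219.9 and 223 in DIS3-sh1. The groups were far apart, and replicate 1 was the lowest of the DIS3-sh1 libraries. The means of 492 ± 1.86 and 216 ± 9.09 CPM gave a log2 fold change of -1.19 ± 0.03 (SE, adjusted p = 2.10e-25). SRSF9, its closest relative, with a short RS domain (ENSG00000111786.9, chromosome 12, 120461668 to 120469793, minus strand), measured 296, 296 and 289.6 CPM in Scramble against 168, 163 and 157 in DIS3-sh1. The groups did not overlap, and SRSF9 fell by 0.85 ± 0.03 on the log2 scale (adjusted p = 2.76e-21), less than SRSF1.

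SRSF4, SRSF5 and SRSF6 form a subfamily of related proteins, and they moved by different amounts. SRSF6 (ENSG00000124193.16, chromosome 20, 43457928 to 43464247, plus strand), a regulator of alternative splicing, measured 221, 226 and 222 CPM in Scramble against 98.7, 104 and 102 in DIS3-sh1. It fell by 1.13 ± 0.03 on the log2 scale (adjusted p = 1.86e-23). SRSF4 (ENSG00000116350.18, chromosome 1, 29147743 to 29181987, minus strand) measured 231, 233 and 236 CPM in Scramble and 165 CPM in each of the 3 DIS3-sh1 libraries, the tightest group of all 10 genes with an SD of 0.21 CPM. SRSF4 fell by 0.50 ± 0.03 (adjusted p = 9.66e-16). SRSF5 (ENSG00000100650.16, chromosome 14, 69726900 to 69772005, plus strand), first described in regenerating liver, measured 165, 167 and 165 CPM in Scramble against 110.3, 118 and 123 in DIS3-sh1. Its fall of 0.50 ± 0.04 (adjusted p = 1.55e-13) differed from that of SRSF4 by less than the errors, and both were smaller than that of SRSF6 by more than the errors.

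The 5 members with 1 RNA recognition motif were also all called lower, with log2 fold changes from -1.14 to -0.36. SRSF2, known as SC35 and as a marker protein of nuclear speckles (ENSG00000161547.17, chromosome 17, 76734115 to 76737374, minus strand), measured 354, 359.8 and 352 CPM in Scramble against 166, 168 and 167 in DIS3-sh1. The libraries of each group lay close together, and SRSF2 fell by 1.09 ± 0.03 (adjusted p = 8.53e-25). SRSF3 and SRSF7 are shuttling proteins that also act as adaptors for the mRNA export receptor NXF1. SRSF3, the smallest SR protein (ENSG00000112081.17, chromosome 6, 36594353 to 36605600, plus strand), measured 448, 465 and 443 CPM in Scramble against 239, 246 and 253 in DIS3-sh1, and fell by 0.88 ± 0.03 (adjusted p = 1.99e-22). SRSF7, which carries a zinc knuckle beside its RNA recognition motif (ENSG00000115875.19, chromosome 2, 38743599 to 38751494, minus strand), measured 243, 234 and 246 CPM in Scramble against 107, 106 and 114 in DIS3-sh1, and fell by 1.14 ± 0.03 (adjusted p = 2.39e-23). Of these 2 genes, SRSF7 thus fell by more than SRSF3.

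SRSF10 and SRSF11 fell least among the members with 1 RNA recognition motif. SRSF10, which is known to act as a splicing repressor once dephosphorylated after heat shock (ENSG00000188529.15, chromosome 1, 23964804 to 23980927, minus strand), measured 276, 286 and 289.8 CPM in Scramble against 184, 201 and 195 in DIS3-sh1. It fell by 0.55 ± 0.03 (adjusted p = 5.75e-16). SRSF11 (ENSG00000116754.14, chromosome 1, 70205682 to 70253052, plus strand), a nuclear protein that takes part in splice site choice, measured 328, 327 and 329 CPM in Scramble against 238, 266 and 259.9 in DIS3-sh1. Scramble was tight (SD 1.04 CPM) and DIS3-sh1 was the widest group of the 10 genes (SD 14.7 CPM), with replicate 1 at its low end. SRSF11 fell by 0.36 ± 0.03 (adjusted p = 1.14e-11), the smallest change of the set.

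Ordered by fold change, the 10 genes are set out here in steps drawn after the values were seen. Genes of the same step need not be equal: the first runs from SRSF1 at -1.19 ± 0.03 to SRSF2 at -1.09 ± 0.03 (SE). SRSF1, SRSF7, SRSF6 and SRSF2 came first, at 43.9% to 47.0% of the Scramble level, then SRSF3 and SRSF9 at 54.4% and 55.5%, then SRSF10, SRSF5 and SRSF4 at 68.2% to 70.8%, and SRSF11 at 77.7%. Of the 9 differences between neighbours in this order, 3 exceeded 2 combined SE: SRSF2 and SRSF3 differed by 0.21 ± 0.04 on the log2 scale, SRSF9 and SRSF10 by 0.30 ± 0.04, and SRSF4 and SRSF11 by 0.14 ± 0.04. The combined SE takes the 2 genes of a pair as independent. By the log2 ratio of the 2 genes within each library, the groups were also apart for SRSF6 over SRSF2, inside the first step. That ratio was -0.67 ± 0.007 in Scramble and -0.72 ± 0.03 in DIS3-sh1 (mean ± SD). The first 3 steps held members from both domain classes and SRSF11 has 1 RNA recognition motif. The classes' median log2 fold changes were -0.85 with 2 RNA recognition motifs and -0.88 with 1. Among the 2179 genes of at least 100 CPM, ordered from the largest fall, SRSF1 stood at place 28 and SRSF11 at place 795.

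**Figure D2:**
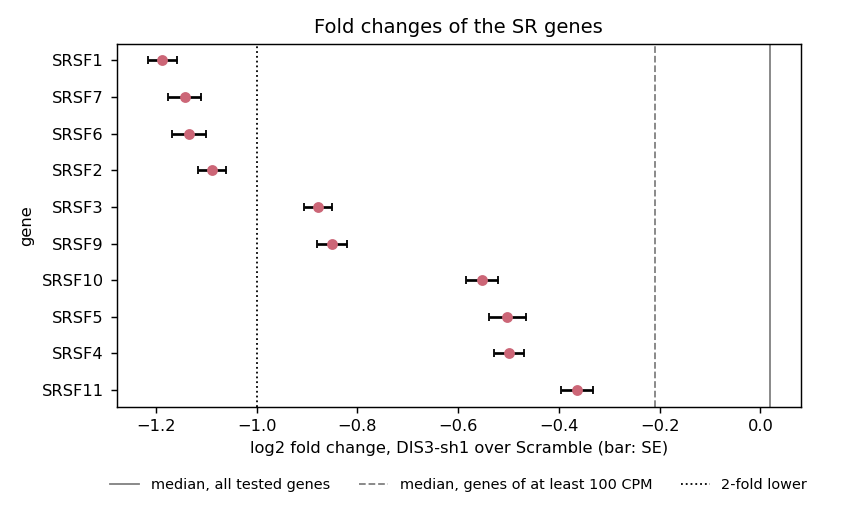
Log2 fold change of each SR gene in DIS3-sh1 over Scramble (x axis, points with SE bars, 3 libraries per group), ordered by size (y axis), with grey lines at the medians of all tested genes and of those averaging 100 CPM or more and a 2-fold fall as a dotted line. SRSF1, SRSF7, SRSF6 and SRSF2 lie left of the dotted line, and SRSF11 at -0.36 is nearest to the medians.

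**Figure D3:**
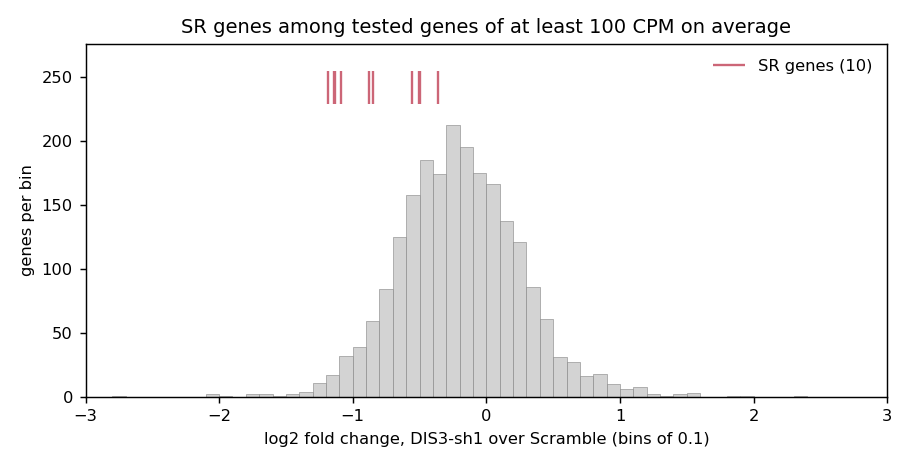
Number of genes (y axis) per bin of log2 fold change in DIS3-sh1 over Scramble (x axis) for the 2179 tested genes of at least 100 CPM on average, with the 10 SR genes as ticks above. All 10 ticks lie left of the median of -0.21, and 4 lie left of -1.

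Because the members fell by unequal amounts, the make-up of the SR transcripts differed between the groups. SRSF11 made up 10.7%, 10.6% and 10.7% of the summed SR CPM in the Scramble libraries and 14.2%, 15.1% and 14.8% in the DIS3-sh1 libraries, with means of 10.7% ± 0.09 and 14.7% ± 0.49. SRSF1, the most abundant in Scramble, went from 16.0% ± 0.06 to 12.5% ± 0.22. The share in DIS3-sh1 minus that in Scramble was -1.94 percentage points for SRSF2, -1.56 for SRSF7 and -1.41 for SRSF6, and 1.93 for SRSF4, 1.91 for SRSF10 and 1.35 for SRSF5. SRSF3 differed by -0.55 points, from 14.7% ± 0.30 to 14.2% ± 0.21. The groups did not overlap for these 9 genes. SRSF9 made up 9.57% ± 0.11 and 9.41% ± 0.53, with overlapping groups. With each gene scaled by its length, the differences were -3.85 points for SRSF1 and 2.87 for SRSF11. On that scale SRSF3 (0.32 points) and SRSF9 (0.66 points) changed direction, and the groups overlapped for both. With 3 libraries against 3, an exact two-sided permutation test cannot go below 0.1, which is the p of each of the 9 (0.111 adjusted over the 10 genes), and it gave 0.7 for SRSF9.

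**Figure D4:**
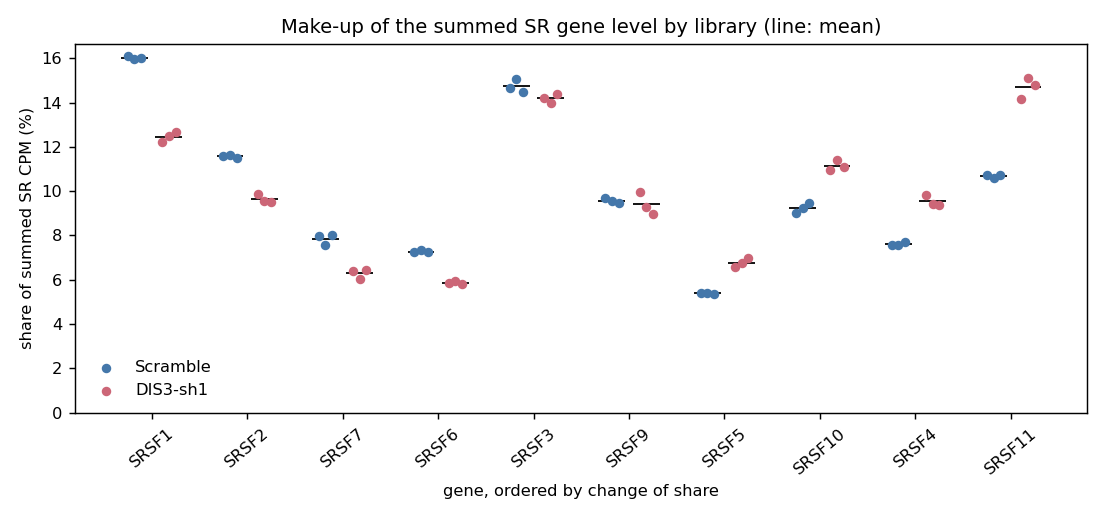
Share of each SR gene in the summed CPM of the 10 genes (y axis, percent, linear from 0) in each library, with the group means as lines; genes on the x axis are ordered by the change of share. SRSF1 went from 16.0% to 12.5% and SRSF11 from 10.7% to 14.7% on average.

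Levels can be compared between genes only per length, here as CPM per kilobase of the union of annotated exons in GENCODE 29. In Scramble the order from high to low was SRSF1 (147 ± 0.56), SRSF2 (118 ± 1.37), SRSF9 (78.4 ± 0.95), SRSF3 (63.5 ± 1.65), SRSF7 (59.6 ± 1.47), SRSF6 (48.6 ± 0.62), SRSF11 (38.7 ± 0.12), SRSF5 (31.0 ± 0.27), SRSF10 (27.6 ± 0.71) and SRSF4 (26.3 ± 0.25), in CPM per kilobase. No neighbours in that order overlapped over the 3 libraries. In DIS3-sh1 SRSF1 (64.7 ± 2.72) and SRSF2 (55.4 ± 0.39) stayed first and SRSF11 (30.1 ± 1.73) moved from place 7 to place 5. The ranges then overlapped between SRSF11 and SRSF7 (27.0 ± 0.99), between SRSF6 (22.1 ± 0.62) and SRSF5 (21.9 ± 1.16), and between SRSF10 (18.8 ± 0.82) and SRSF4 (18.6 ± 0.02). The identifiers of all 10 genes carry other version numbers in the deposited table than in GENCODE 29, so the lengths behind these levels, but not the fold changes, may differ from those of the authors' annotation.

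Promoter sequences are shown as a description for the members with the largest and the smallest falls. Gene counts do not separate synthesis from decay, and a part of the promoters in the falls was not tested. RefSeq windows on GRCh38.p14, from 250 bases before to 50 bases after the transcription start, were found for 9 of the 10 genes (all but SRSF2). SRSF7 and SRSF11 had 2 windows each, and 1 was used: the one with more annotated GENCODE starts within 25 bases for SRSF7, and, these being equal, the one nearer the 5′ end of the gene for SRSF11. That choice for SRSF11 was made after the windows were seen, and the windows not chosen count only among all windows. The windows below are at chr17:58007197-58007496 (SRSF1, minus strand), chr2:38751312-38751611 (SRSF7, minus strand) and chr1:70205446-70205745 (SRSF11, plus strand), each written 5′ to 3′ on the strand of its gene. Capitals mark matches on either strand to the 8 motifs searched.
SRSF1: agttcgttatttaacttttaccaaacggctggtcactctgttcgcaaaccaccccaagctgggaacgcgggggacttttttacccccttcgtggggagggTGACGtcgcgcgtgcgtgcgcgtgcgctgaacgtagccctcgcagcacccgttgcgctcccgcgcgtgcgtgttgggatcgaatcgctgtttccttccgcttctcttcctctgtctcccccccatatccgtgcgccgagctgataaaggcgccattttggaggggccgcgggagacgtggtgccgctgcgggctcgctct
SRSF7: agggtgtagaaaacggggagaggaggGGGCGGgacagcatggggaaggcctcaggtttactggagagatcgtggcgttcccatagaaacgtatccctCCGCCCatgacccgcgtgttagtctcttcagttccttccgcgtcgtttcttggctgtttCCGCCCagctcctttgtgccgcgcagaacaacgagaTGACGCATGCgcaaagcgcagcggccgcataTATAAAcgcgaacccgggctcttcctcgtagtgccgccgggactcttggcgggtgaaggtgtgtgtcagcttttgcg
SRSF11: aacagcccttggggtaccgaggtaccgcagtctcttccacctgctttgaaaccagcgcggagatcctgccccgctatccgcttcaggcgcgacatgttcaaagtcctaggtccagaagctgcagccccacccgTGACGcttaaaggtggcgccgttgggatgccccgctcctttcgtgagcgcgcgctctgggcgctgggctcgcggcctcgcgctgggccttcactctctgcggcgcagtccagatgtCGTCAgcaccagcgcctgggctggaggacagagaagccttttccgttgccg

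The half-site of the cyclic AMP element (TGACG) was the motif found most often, in the windows of SRSF1, SRSF3, SRSF5, SRSF7 and SRSF11, 5 of 9, against 24.6% of all 35116 windows of the same length. It occurred in the member with the largest fall and in the one with the smallest. The GC box (GGGCGG) was in 3 of 9 (SRSF4, SRSF6 and SRSF7; 45.0% of all windows), the ETS site (CCGGAAG) in SRSF4 and SRSF5 (10.3%), the NRF1 core (GCATGC) in SRSF7 and SRSF10 (7.22%), the TATA box (TATAAA) in SRSF3 and SRSF7 (11.5%) and the CCAAT box (CCAAT) in SRSF3 (34.6%). The E-box (CACGTG, 7.26% of all windows) and the paired heat shock unit (GAANNTTC, 6.77%) had no match in the 9 windows. In SRSF7 the half-site and the NRF1 core overlap, and in SRSF5 the ETS site and a half-site adjoin. No motif was present in all of SRSF1, SRSF6 and SRSF7, which fell at least 2-fold. SRSF2 also fell by that much but had no window, and a link between motifs and falls was not tested. A match is a description of letters and not a bound site.

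Several members share their place in the genome with other genes, and fractional values in the table can arise where a read is divided between features. Over SRSF1 lies a same-strand gene, ENSG00000266086 (57989038 to 58007246 on chromosome 17), annotated as coding, with 52.6% as many counts as SRSF1. It measured 261, 264 and 257 CPM in Scramble against 109, 113 and 113 in DIS3-sh1, and fell by 1.22 ± 0.03 (adjusted p = 6.93e-25). With its counts added to SRSF1, a setting chosen after the data were seen, the log2 fold change of SRSF1 was -1.20. On the opposite strand ENSG00000279069, which overlaps SRSF1 by 673 bases, was called higher, at 13.5 ± 2.16 and 16.4 ± 1.10 CPM (0.28 ± 0.10, adjusted p = 0.0122). MIR636, a microRNA gene inside SRSF2 on the same strand, fell by 1.01 ± 0.14 (adjusted p = 1.24e-07) from 7.04 ± 0.71 to 3.50 ± 0.19 CPM, close to the change of SRSF2 itself. Reads cannot be assigned with certainty between MIR636 and SRSF2, or between ENSG00000266086 and SRSF1. The falls of these overlapping genes may therefore not be separate from those of the SR genes.

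On the strand opposite SRSF2, MFSD11, a transporter-like gene, had 25.2 ± 2.16 CPM in Scramble against 23.5 ± 1.14 in DIS3-sh1 and was not called (adjusted p = 0.198). ENSG00000267168, annotated as coding, overlaps SRSF2 on that strand by 3260 bases. It had 5.66 ± 0.40 CPM in Scramble against 6.26 ± 0.11 in DIS3-sh1 and was not called (adjusted p = 0.303). GATC, a mitochondrial amidotransferase subunit gene whose span overlaps the end of SRSF9 on the opposite strand, fell by 0.44 ± 0.04 (adjusted p = 1.95e-11), from 150.0 ± 5.07 to 111 ± 6.21 CPM. Whether strand was used in counting is not given in the sources used here, so reads of these genes cannot be told apart with certainty. Processed pseudogenes held few counts: of 11 listed, SRSF6P2 had 214 counts over the 6 libraries, 1.03% of those of SRSF6, and the others 6 or fewer.

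The other genes of the SR network were mostly lower as well. The share called lower was 32.6% of all tested genes and 61.9% of those averaging 100 CPM or more. Of the remaining SR genes, SRSF8, an intronless copy of SRSF2 with which it may share reads, fell from 55.0 ± 4.05 to 36.5 ± 1.29 CPM (-0.59 ± 0.06 on the log2 scale, adjusted p = 1.05e-10), while SRSF12, a relative of SRSF10, rose from 11.7 ± 0.24 to 14.3 ± 1.04 CPM (0.29 ± 0.09, adjusted p = 0.00497). Both TRA2 genes, whose products are SR-like splicing activators, fell: TRA2B by 1.05 ± 0.03, from 276 ± 3.53 to 133 ± 4.64 CPM, and TRA2A by 0.60 ± 0.04. Of 9 tested kinases and import factors of SR proteins, the test called 6 lower and 1 higher and left 2 uncalled (median -0.37).

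Among the kinases, SRPK1, the main cytoplasmic SR kinase, fell by 0.86 ± 0.03, from 296 ± 7.30 to 163 ± 3.45 CPM, and PRPF4B, a kinase of the spliceosome, by 0.79 ± 0.03. SRPK2 measured 73.5 ± 1.42 and 72.6 ± 1.39 CPM and was not called (-0.019 on the log2 scale, and 0.061 with upper-quartile scaling). The nuclear CLK kinases went both ways: CLK1 fell by 0.45 ± 0.07, CLK3 rose from 33.7 ± 0.83 to 41.1 CPM (0.29 ± 0.06), and CLK2, at 5.30 ± 0.52 and 6.13 ± 0.74 CPM, was not called (adjusted p = 0.175). CLK4 fell by 0.19 ± 0.07 (adjusted p = 0.0175). It was no longer called under upper-quartile scaling (adjusted p = 0.162), without Scramble replicate 1 (0.108) and without DIS3-sh1 replicate 1 (0.133). DYRK1A, a kinase that also phosphorylates splicing factors, fell by 0.37 ± 0.04, and TNPO3 fell by 0.42 ± 0.03. SRPK3, a muscle kinase gene, did not pass the expression filter.

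Of 35 SR-related proteins, which carry RS-rich regions or work beside SR proteins, the test called 31 lower and 1 higher and left 3 uncalled (median log2 fold change -0.54). The list also holds both TRA2 genes and U2AF2. SON, a scaffold of nuclear speckles, fell by 0.92 ± 0.02, from 803 ± 4.70 to 423 ± 5.41 CPM. BCLAF1 (-0.99) and RNPS1, a component of the exon junction complex periphery (-0.88), fell as well. CCNL2, a cyclin L of nuclear speckles, was the member that rose (0.35 ± 0.04, from 73.2 ± 1.26 to 93.4 ± 4.90 CPM), and with upper-quartile scaling 2 members of the list were higher.

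The hnRNPs, RNA-binding proteins that often oppose SR proteins at splice sites, had 22 of 23 tested genes lower and 1 higher, with a median of -0.60. HNRNPM (-1.06), HNRNPD (-0.98), HNRNPH1 (-0.86) and HNRNPDL (-0.85) fell. HNRNPM went from 416 ± 4.82 to 199 ± 7.93 CPM. PCBP2, a poly(C)-binding protein gene, rose from 467 ± 0.60 to 535 ± 4.10 CPM (0.19 ± 0.02). Several hnRNP genes have many processed copies, so their counts may be divided.

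The machinery that acts on poison-exon transcripts was also mostly lower. Of 17 genes of nonsense-mediated decay and the exon junction complex, 14 fell and 3 rose, with a median of -0.33. EIF4A3, the anchor of the exon junction complex, fell by 1.00 ± 0.04, from 191 ± 6.24 to 95.1 ± 2.90 CPM. SMG5 (-0.87) and UPF2 (-0.76) fell, while NBAS (0.48), UPF3A (0.32) and CASC3 (0.32) rose. Of 9 genes of the NXF1 export route, which SRSF3 and SRSF7 feed, 8 fell and 1 rose, with a median of -0.54. U2AF2 (-0.84), NXF1 itself (-0.68), ALYREF (-0.57) and CHTOP (-0.54) fell, and THOC5, a subunit of the THO complex, rose (0.24 ± 0.04). All of these counts stand beside the 32.6% of tested genes called lower and the 61.9% among genes of at least 100 CPM.

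**Figure D5:**
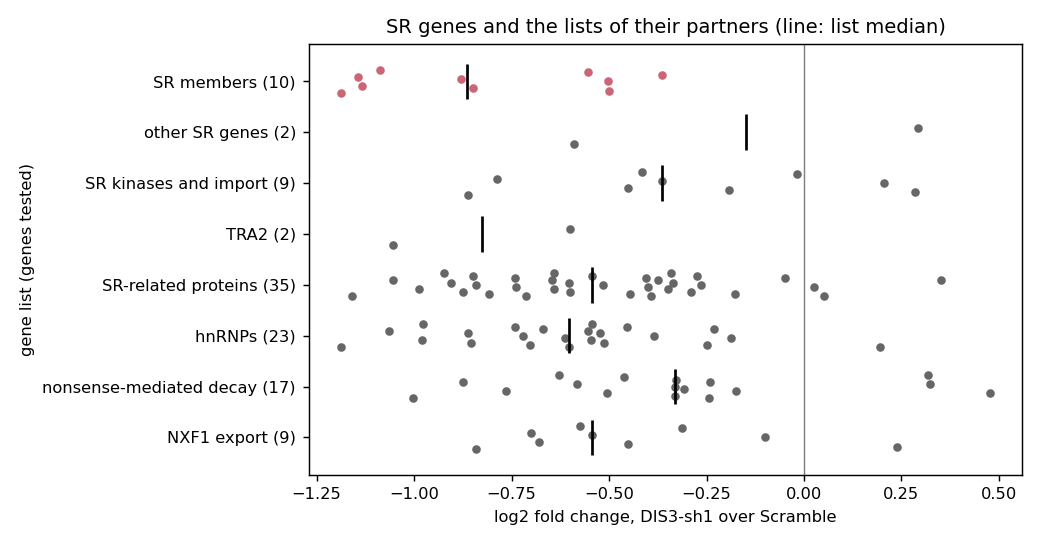
Log2 fold change in DIS3-sh1 over Scramble (x axis) of each tested gene of the SR set and of 7 lists of partner genes (y axis, number tested in brackets), with the list median as a line; TRA2A, TRA2B and U2AF2 stand in more than 1 list. The SR genes have a median of -0.86, the SR-related proteins -0.54 and the hnRNPs -0.60.

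The genes outside these lists whose levels over the 6 libraries ran closest to the median profile of the 10 SR genes were sought among 10775 genes of at least 10 CPM, by the mean absolute difference of centred log2(CPM + 1). The nearest were HSP90AB1, a cytosolic HSP90 chaperone gene (0.012), the pseudogene EIF1AXP1, the clathrin heavy chain gene CLTC, the superoxide dismutase gene SOD1 (each 0.014) and the histone gene H2BC7 (0.015). HSP90AB1 measured 1981, 1999 and 1932 CPM in Scramble against 1052, 1077 and 1069 in DIS3-sh1. The nearest members, SRSF3 and SRSF9, were at 0.021 and the farthest, SRSF11, at 0.249, and 11 genes outside the lists were nearer than any member. The median of 10 genes lies midway between the 2 middle ones, here SRSF3 and SRSF9. Their equal distance, and with it the count of 11, follows from the gap between these 2 genes. With 6 libraries in 2 groups this likeness mostly ranks genes by the size of their fall.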

How the data were processed

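Values are expected counts (not always whole) for each gene, as deposited by the authors. The submitters' processing notes list HISAT2 2.1.0, Bowtie2 2.3.5, featureCounts 1.5.1, SAMtools and the hg38 build. Their roles, the annotation and the strand setting are not given in the sources used here. The names of 3 of the 9 columns matched no label and were not used, so the planned DIS3-sh2 comparisons were not made and the model was fitted to 6 libraries.

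Counts were rounded and tested with edgeR 4.0.16 (R 4.3.3): filterByExpr by group, TMM scaling, robust quasi-likelihood F-test with group as the only term, two-sided, Benjamini-Hochberg adjustment over all 19591 genes, called at an adjusted p under 0.05. The test was checked on simulated data. Protein sequences were not used here. Each SE was computed as |log2 fold change| / sqrt(F). Symbols, coordinates and exon lengths came from the symbol table and GENCODE 29 (GRCh38).

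The members and lists were chosen with earlier results of these data known. The naming rule took every member, DIS3, all kinases, TRA2 and other SR genes, the 4 genes of smallest p per other list with up to 3 that went against it, and the 5 genes of most similar profile. 1 gene that the rule names is not reported here.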

Additional observations from a re-analysis of the deposited data

How the results depend on the processing

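Under 16 alternative settings (other scaling, no filter, DESeq2 1.42.0, limma-voom from limma 3.58.1, rounding down, pseudogene or overlapping counts added, without small structural, ribosomal and mitochondrial genes, the replicate block, and 6 fits that each left out 1 library), all 10 SR genes were called lower, and in each of them 4 fell at least 2-fold. Adding overlapping counts was chosen after seeing the data. The median of the SR genes was nearest to 0 with upper-quartile scaling (-0.78), where SRPK2 changed sign (0.061, adjusted p = 0.203) and the median of all tested genes was 0.10. There 2 SR-related genes were called higher in place of 1. With the replicate block, 13166 genes were called against 13130 without it, and 10 SR genes were lower. Deviations of same-numbered libraries correlated at 0.037, 0.014 and 0.010, so the numbers were not taken as pairs, although each library correlated best with its own number. A fit of only the compared groups equals the one reported, since 2 groups were used. DIS3-sh2 alternatives were not run. With at least 2090 counts per SR gene and library, depth did not limit these calls, while 3 libraries per group limit the tests of shares.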
